A study of Mus musculus with 8 samples.

Results

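The 3 NR4A orphan nuclear receptors (Nr4a1, Nr4a2 and Nr4a3) and 5 genes of the cAMP-CREB pathway (Sik1, Creb1, Crem, Creb3l3 and Crtc2) were followed in mouse liver after a single pulse of growth hormone (GH). They were chosen by symbol, and these 8 were found among the 24197 genes of the deposited table. Livers came from hypophysectomized male mice of the outbred CD-1 stock. In every group the pituitary, the source of GH, had been removed at 7 weeks, and the mice were 11 weeks old at collection. One group was untreated; the others were collected 30, 90 or 240 min after an intraperitoneal injection of recombinant rat GH (125 ng/g). Each of the 4 groups comprised 2 RNA pools, with 4 mice per pool in the legend, so that the spread seen here is between pools and not between mice. The treatment protocol mentions vehicle for controls whereas the design text calls them untreated. If those animals were not injected, an effect of the injection cannot be told apart from one of GH.

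In liver, glucagon and adrenergic signals raise cAMP, which activates protein kinase A. The kinase phosphorylates CREB, and dephosphorylated CRTC coactivators enter the nucleus and join it on cAMP response elements (CREs). NR4A receptor genes are fast-induced targets of this pathway, act without a known physiological ligand, and are reported to raise gluconeogenic genes in mouse liver. SIK1 is induced by CREB too and closes a feedback loop by phosphorylating CRTC2, which keeps it in the cytoplasm. Crem encodes both activators and the inducible repressor ICER, and Creb3l3 encodes CREBH, a membrane-bound factor of the hepatocyte that is released by proteolysis and regulates lipid and acute-phase genes.

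The promoter windows of the 3 receptor genes are shown because all of them held several copies of the core of the CRE. Each runs from 250 bases before to 50 bases after the RefSeq start (GRCm38.p6), and capitals mark TGACG or its reverse complement CGTCA.
Nr4a1 promoter, chr15:101266596-101266895, plus strand: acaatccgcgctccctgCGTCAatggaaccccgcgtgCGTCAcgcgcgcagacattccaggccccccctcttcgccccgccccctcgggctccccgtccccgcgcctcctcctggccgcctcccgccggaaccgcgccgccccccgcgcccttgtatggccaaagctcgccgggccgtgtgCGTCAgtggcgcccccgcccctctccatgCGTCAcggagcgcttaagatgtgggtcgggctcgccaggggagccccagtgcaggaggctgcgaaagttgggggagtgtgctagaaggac
Nr4a2 promoter, chr2:57123954-57124253, minus strand: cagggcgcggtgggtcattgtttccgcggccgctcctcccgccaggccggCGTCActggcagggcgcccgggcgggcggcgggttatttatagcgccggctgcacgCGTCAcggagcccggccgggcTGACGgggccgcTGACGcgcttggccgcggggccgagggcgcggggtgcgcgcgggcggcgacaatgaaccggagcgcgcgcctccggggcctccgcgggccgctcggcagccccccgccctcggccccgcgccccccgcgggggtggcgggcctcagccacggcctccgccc
Nr4a3 promoter, chr4:48045055-48045354, plus strand: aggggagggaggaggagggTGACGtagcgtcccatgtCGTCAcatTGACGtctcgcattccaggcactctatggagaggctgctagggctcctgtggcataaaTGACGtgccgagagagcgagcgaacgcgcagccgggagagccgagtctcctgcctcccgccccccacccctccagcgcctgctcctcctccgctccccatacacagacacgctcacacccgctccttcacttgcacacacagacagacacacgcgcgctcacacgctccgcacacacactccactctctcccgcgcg
Each of these 3 windows held 4 matches to TGACG on either strand. Relative to the start, those of Nr4a1 began at positions -233, -213, -69 and -40, those of Nr4a2 at -200, -144, -123 and -111, and those of Nr4a3 at -231, -213, -205 and -147. At least 1 match was present in 20.8% of all 32851 windows of this length, and at least 4 were present in 76 of them, or 0.231%. None of the 3 windows contained the full palindrome TGACGTCA (1.79% of all windows), the NR4A monomer element AAAGGTCA or its reverse complement (1.51%), or TTCNNNGAA, the spacing bound by STAT5 (8.30%). Windows of 5 members were searched, and Sik1, Crem and Crtc2 are named only. The Creb1 window had no TGACG match, and the 2 windows of Creb3l3 had 1 and 0.

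The deposited table holds mean FPKM, a read density normalised for gene length and library size, and the ratio of each GH group to the untreated one. Both are given for the gene body and again for introns, whose reads derive mainly from RNA that is not yet spliced. A gene is said to rise, fall or be called when the adjusted p in the authors' deposited table is below 0.05. Although the table gives group means only, they could be resolved into whole reads of each pool for 10720 of 10737 genes, the 8 members included. The 2 libraries of a group are distinguished below as smaller and larger by their totals, since nothing ties them to pool labels. Totals ranged from 5937824 reads (240 min, smaller) to 17124712 reads (90 min, larger). The recovered reads were tested with limma and voom over all 4 groups, and changes from that fit are given on the log2 scale with their standard error (SE). This fit called fewer genes than the deposited table at every time, and both sources are named beside each value.

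The 30 min libraries stood apart from one another. Over 10718 genes, the deviations of a library from the mean of all 8 correlated between the 2 libraries of a group with r of 0.668 in the untreated group, 0.574 at 90 min and 0.519 at 240 min, but with r of -0.21 at 30 min. The smaller 30 min library had correlations of 0.270 and 0.284 with the untreated libraries, whereas the larger had -0.0665 and -0.252. Intronic reads made up 3.10% of the smaller and 5.47% of the larger 30 min library, against 3.83% to 5.79% in the other 6. Results at 30 min are therefore given also without each of these libraries for Nr4a1 and for the gene body of Sik1. For Creb1, Crem, Creb3l3 and Crtc2 the gene body level of each 30 min pool is given. Hepatocyte markers were abundant in every group. The sum of 8 of them was 52646 FPKM in untreated liver, 46584 at 30 min, 42794 at 90 min and 36299 at 240 min. For 6 of them the level of each pool could be recovered. Their sum was 6339 and 5280 FPKM in the untreated pools (smaller and larger library). It was 5155 and 4574 at 30 min, 4873 and 4542 at 90 min and 3064 and 5240 at 240 min. The larger 240 min pool was thus near the larger untreated one. Of the 8, the authors' deposited table called 0 over the gene body at 30 min, 2 higher and 5 lower at 90 min, and 1 higher and 4 lower at 240 min. Their median log2 ratios were -0.11, -0.50 and -0.49. Of all measured genes, 0.224% were called higher and 0.289% lower at 30 min, 15.9% and 12.5% at 90 min, and 14.4% and 8.58% at 240 min. The part of hepatocyte RNA in the falls described below was not tested. Ratios varied with transcript length and GC content across genes, with a Spearman correlation at 90 min of 0.486 for length and -0.507 for GC content. These correlations are across genes, which are not independent replicates.

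Nr4a1 encodes the receptor also known as NUR77 and lies at chr15:101097276-101105225 on mm9, the build of the files, with 2476 nt of exons and 5473 nt of introns. Its gene body level was 21.2 and 23.8 FPKM in the untreated pools (391 and 620 reads). It was 1.96 and 5.70 FPKM at 30 min (46 and 139 reads), 2.86 and 2.55 at 90 min (109 and 108 reads), and 3.40 and 4.17 at 240 min (50 and 146 reads). Both untreated pools were thus above all 6 GH-treated pools, and the ranges of the 30 min pools took in those of the other times. In the authors' deposited table, Nr4a1 fell 5.74-fold at 30 min (adjusted p = 4.89e-07), 8.37-fold at 90 min (adjusted p = 2.88e-79) and 6.02-fold at 240 min (adjusted p = 9.04e-40). In bulk liver, less RNA per cell and fewer cells that express a gene cannot be told apart. All 3 comparisons use the same untreated pools, so their agreement is not independent.

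On the recovered reads, limma with voom gave a log2 change of -2.67 (SE 0.35, adjusted p = 0.0471) for Nr4a1 at 30 min, -3.05 (SE 0.34, adjusted p = 0.00284) at 90 min and -2.63 (SE 0.35, adjusted p = 0.00427) at 240 min. Without the smaller 30 min library the 30 min change was -1.95, and without the larger it was -3.43. With a single 30 min library left, that group adds no spread of its own, so no p is given for these. The 30 min call was lost when an untreated library was left out (adjusted p = 0.276 without the smaller and 0.630 without the larger), with changes of -2.76 and -2.59. At 90 and 240 min it was lost without the larger untreated library (adjusted p = 0.0620 and 0.0751), and at 240 min also without the larger 240 min library (adjusted p = 0.0539). Direct tests between GH times did not pass for Nr4a1, with a change of -0.37 (SE 0.38) from 30 to 90 min and 0.42 (SE 0.38) from 90 to 240 min.

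The intronic signal of Nr4a1 fell as well, with ratios in the deposited table farther from 1 than those of the gene body. It was 4.94 and 4.31 intronic FPKM in the untreated pools (201 and 248 reads), 0.0962 and 0.186 at 30 min (5 and 10 reads), 0.238 and 0.203 at 90 min (20 and 19 reads), and 0.185 and 0.116 at 240 min (6 and 9 reads). No treated pool came near either untreated pool. The authors' deposited table gave intronic falls of 35.5-fold at 30 min (adjusted p = 1.16e-26), 30.9-fold at 90 min (adjusted p = 3.23e-83) and 41.6-fold at 240 min (adjusted p = 1.70e-70). With limma and voom the intronic log2 changes were -5.08 (SE 0.40), -4.95 (SE 0.29) and -5.37 (SE 0.39), with adjusted p of 1.04e-06, 1.54e-08 and 6.49e-07. Without each 30 min library in turn, the 30 min intronic change was -5.06 and -5.08.

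In untreated liver, the intronic reads of Nr4a1 numbered 44.4% of its gene body reads. The median over 8279 genes was 8.41% and the 90th percentile 30.9%. After GH the figure for Nr4a1 was 8.11% at 30 min, 17.97% at 90 min and 7.65% at 240 min, while the medians of all genes were 9.79%, 12.97% and 10.2%. The difference between the intronic and the gene body fall was not tested itself.

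**Figure D1:**
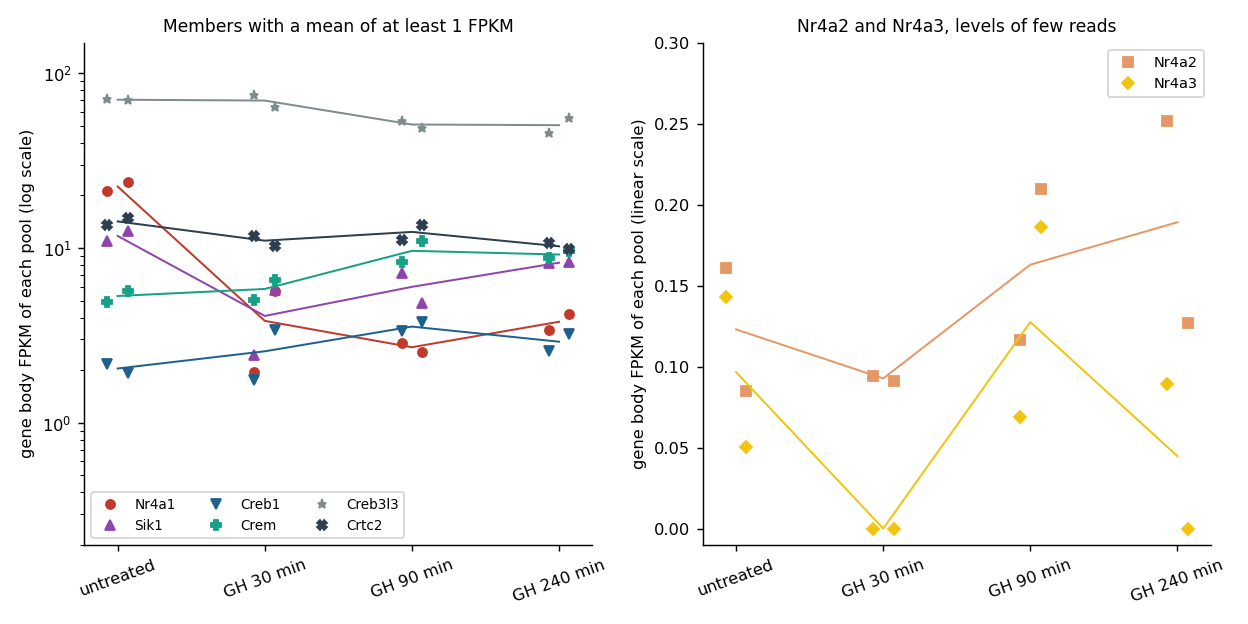
Gene body level of the 8 genes in FPKM for each of the 2 pools of a group, with lines through the group means; the left panel has a log scale and the right a linear one. Nr4a1 goes from 21.2 and 23.8 FPKM in the untreated pools to between 1.96 and 5.70 after GH, Creb3l3 stays above 45 FPKM throughout, and Nr4a2 and Nr4a3 lie below 0.3 FPKM.

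Markers of blood-borne myeloid cells were recorded beside Nr4a1, because the gene is also known in macrophages and neutrophils. The summed level of 8 neutrophil and inflammatory monocyte markers was 57.3 and 55.9 FPKM in the untreated pools, 17 to 31.7 at 30 min, 81.5 and 76.5 at 90 min and 32.6 and 33.5 at 240 min. Of the 8, the authors' deposited table called 1 lower at 30 min, 3 higher at 90 min, and 2 higher and 3 lower at 240 min. Nr4a1 was at 1.96 and 5.70 FPKM at 30 min, 2.86 and 2.55 at 90 min and 3.40 and 4.17 at 240 min. The sum of 10 Kupffer cell and macrophage markers was 252 and 250 FPKM in untreated liver and 163 to 229 in the treated pools. Of the 10, 1, 4 and 5 were called lower at the 3 times. Over all measured genes, 0.289%, 12.5% and 8.58% were called lower at these times, and 0.224%, 15.9% and 14.4% higher. The part of these cells in the fall of Nr4a1 was not tested.

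Nr4a2 (NURR1) and Nr4a3 (NOR1) were near the limit of detection. Nr4a2 had 3 to 12 gene body reads per library, or 0.0852 to 0.252 FPKM, with overlapping groups. Nr4a3 had 2 and 1 reads in the untreated pools, 0 and 0 at 30 min, 2 and 6 at 90 min and 1 and 0 at 240 min. A count of 0 in both 30 min libraries allows up to 0.0823 FPKM (3 reads over both), a limit that covers counting error only. The untreated mean of 0.0966 FPKM itself rests on 3 reads, so whether Nr4a3 fell could not be told at this depth. Neither gene was called at any time in the authors' deposited table, and no pool of either was above 0.252 FPKM. Neither gene reached the mean of 1 FPKM set for measured genes, which left 6 members.

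Sik1, the CREB-induced kinase (chr17:31981194-31992737, mm9), was at 10.9 and 12.5 FPKM in the untreated pools. It was at 2.45 and 5.72 FPKM at 30 min, 7.15 and 4.84 at 90 min and 8.22 and 8.27 at 240 min. All treated pools were below both untreated ones, and the 30 min and 90 min pools overlapped. The authors' deposited table had Sik1 2.80-fold lower at 30 min (adjusted p = 0.0121), 1.97-fold lower at 90 min (adjusted p = 1.92e-06) and 1.48-fold lower at 240 min (adjusted p = 0.00655). None of these passed with limma and voom, where the log2 changes were -1.58 (SE 0.33, adjusted p = 0.196), -0.98 (SE 0.31, adjusted p = 0.133) and -0.60 (SE 0.31, adjusted p = 0.258). Without the smaller 30 min library the 30 min change of Sik1 was -1.01, and without the larger it was -2.17. With a single 30 min library left, that group adds no spread of its own, so no p is given for these. The difference between 240 and 30 min was 0.98 (SE 0.33, adjusted p = 0.109 with limma and voom).

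Intronic reads of Sik1 were few. There were 21 and 32 in the untreated pools, 3 and 9 at 30 min, 34 and 17 at 90 min and 15 and 10 at 240 min. As FPKM, the 30 min pools were at 0.0449 and 0.130, the larger 90 min and 240 min pools were below or close above the higher of these (0.141 and 0.1), and the smaller pools of those times (0.314 and 0.359) were nearer the untreated 0.401 and 0.433. In the authors' deposited table the intronic level fell 5.24-fold, 2.77-fold and 2.85-fold at the 3 times (adjusted p = 0.00122, 0.00287 and 0.0182). Limma with voom gave -2.34 (SE 0.61, adjusted p = 0.0746), -1.60 (SE 0.41, adjusted p = 0.0213) and -1.76 (SE 0.48, adjusted p = 0.0381). The change of Sik1 at 90 min was -1.02 (limma adjusted p = 0.275) without the larger 90 min library, and at 240 min it was -0.75 (limma adjusted p = 0.593) without the larger 240 min library. Its 90 min call was lost too without the smaller or larger untreated library (adjusted p = 0.123 and 0.269), and its 240 min call without either of these (0.190 and 0.311) or the smaller 240 min library (0.0711).

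**Figure D2:**
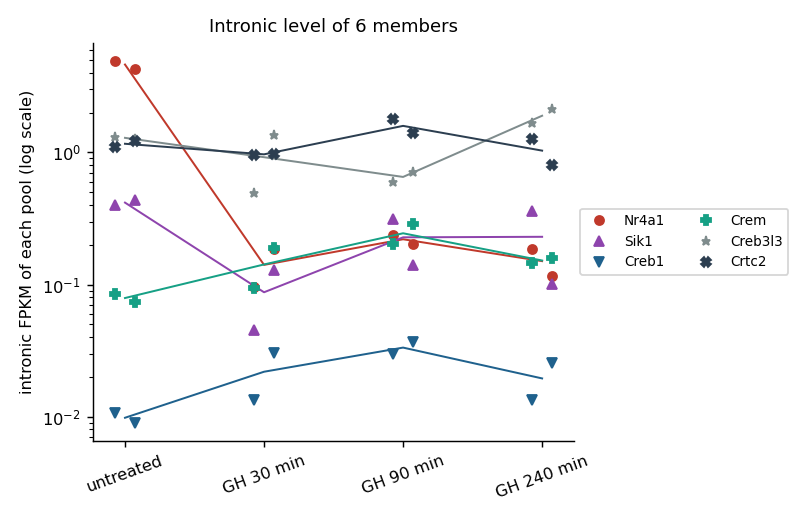
Intronic level of the 6 measured genes in FPKM on a log scale for each of the 2 pools of a group, with lines through the group means. Nr4a1 falls from 4.94 and 4.31 to at most 0.238, and both Creb3l3 pools are lower at 90 min (0.599 and 0.705) than at 240 min (1.66 and 2.13).

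Among the CREB family factors, Creb1 and Crem were higher at 90 min in the deposited table. Creb1, which encodes CREB itself (chr1:64579377-64651122, mm9), was at 2.16 and 1.93 FPKM in the untreated pools, 1.75 and 3.38 at 30 min, 3.34 and 3.77 at 90 min and 2.58 and 3.24 at 240 min. The 90 min pools were above the untreated ones, while the 30 min pools lay on both sides of them. The rise at 90 min was 1.74-fold in the authors' deposited table (adjusted p = 3.00e-06), and at 30 and 240 min the log2 ratios were 0.37 and 0.48 without a call. After removal of the trend with length and GC content the 90 min log2 ratio of Creb1 was 0.14, against 0.80 before. Limma with voom gave 0.81 (SE 0.27, adjusted p = 0.144). At 30 min it gave 0.32 for Creb1, and 0.76 without the smaller 30 min library. The smaller 30 min pool, at 1.75 FPKM, was below both untreated pools, so the change of 0.76 rests on the larger pool alone.

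Crem was at 4.93 and 5.70 FPKM in the untreated pools and 5.07 and 6.59 at 30 min. It was at 8.30 and 11.0 FPKM at 90 min and 8.75 and 9.62 at 240 min. The pools of the later times were all above the untreated and 30 min pools. By the authors' deposited table Crem rose 1.80-fold at 90 min (adjusted p = 7.01e-06) and 1.67-fold at 240 min (adjusted p = 0.00048). The limma and voom changes of Crem were 0.85 (SE 0.20, adjusted p = 0.0605) and 0.70 (SE 0.20, adjusted p = 0.0601). Its introns rose as well at 90 min, from 42 and 52 reads to 208 and 329. That was 2.10-fold in the authors' deposited table (adjusted p = 0.0012) and a log2 change of 1.01 with limma and voom (SE 0.26, adjusted p = 0.0222). This intronic call of Crem was lost without the smaller or larger untreated library or the larger 90 min one (limma adjusted p = 0.155, 0.279 and 0.248), at changes of 0.75 to 1.06. The table lists 16 transcripts of Crem under 1 value, so activators and the repressor ICER are not separated.

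Creb3l3 (chr10:80547077-80561617, mm9) had the highest level per length of the members in every group. Its gene body level was 71.1 and 70.4 FPKM in the untreated pools, 75.6 and 64.2 at 30 min, 53.3 and 48.7 at 90 min and 45.5 and 55.6 at 240 min. The 90 min and 240 min pools were all below the untreated ones and overlapped with each other. By the authors' deposited table Creb3l3 fell 1.39-fold at 90 min (adjusted p = 0.000773) and 1.44-fold at 240 min (adjusted p = 0.0115). Its log2 ratios of -0.47 and -0.53 became -0.18 and -0.36 once the trend with length and GC content was removed. With limma and voom these changes of Creb3l3 were -0.46 (SE 0.17, adjusted p = 0.169) and -0.57 (SE 0.17, adjusted p = 0.0670).

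The introns of Creb3l3 followed another course than its gene body. They were at 1.31 and 1.27 FPKM in the untreated pools, 0.490 and 1.35 at 30 min, 0.599 and 0.705 at 90 min and 1.66 and 2.13 at 240 min. Both 240 min pools were above, and both 90 min pools below, the untreated pools. At 90 min the intronic signal fell 2.92-fold in the authors' deposited table (adjusted p = 2.91e-12), and limma with voom gave -1.57 (SE 0.26, adjusted p = 0.001). Without the larger untreated library this change of Creb3l3 was -1.55 (limma adjusted p = 0.0521). From 90 to 240 min the intronic level of Creb3l3 rose by 1.71 on the log2 scale (SE 0.26, adjusted p = 0.000572 with limma and voom). It stayed past the threshold without any single library, at changes of 1.40 to 2.01 (adjusted p up to 0.0369). Scaled by library totals in place of the median ratio over genes, it was 1.54 (limma adjusted p = 0.0851), and the 90 min change of Creb3l3 was -0.99 (limma adjusted p = 0.165). With the median ratio scaling this was the single test to pass of 36 between GH times, over 6 members, both measures and 3 pairs of times. Of all genes tested, 0.662%, 4.63% and 6.3% were called in the gene body from 30 to 90 min, from 90 to 240 min and from 30 to 240 min, and 2.34%, 6.96% and 5.65% in introns. At 240 min the intronic ratio of Creb3l3 to the untreated group was 0.21 on the log2 scale and was not called.

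Crtc2, the coactivator that SIK1 restrains (chr3:90058202-90068047, mm9), was at 13.6 and 14.9 FPKM in the untreated pools, 11.8 and 10.3 at 30 min, 11.1 and 13.6 at 90 min and 10.6 and 9.84 at 240 min. The 240 min pools were below the untreated ones and the larger 90 min pool reached them. The authors' deposited table called Crtc2 1.45-fold lower at 240 min (adjusted p = 0.0152), where limma with voom gave -0.57 (SE 0.18, adjusted p = 0.0796). Its introns were not called at any time, with log2 ratios of -0.32, -0.13 and -0.63 in that same authors' deposited table.

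Counted over the 8 members, the gene body calls of the authors' deposited table were 0 higher and 2 lower at 30 min, when 0.116% of all genes were called higher and 0.149% lower. They were 2 higher and 3 lower at 90 min (7.56% and 5.83% of all genes) and 1 higher and 4 lower at 240 min (6.7% and 4.22%). Intronic calls were 0 higher and 2 lower at 30 min (0.351% and 0.215% of all genes), 1 higher and 3 lower at 90 min (3.32% and 2.91%), and 0 higher and 2 lower at 240 min (2.29% and 2.66%). With limma and voom, Nr4a1 was the only member called over the gene body, lower at all 3 times. That fit takes a common spread for all 4 groups, so the difference between the 30 min libraries enters its p at 90 and 240 min too. Of the genes tested, that fit called 0.00933% higher and 0.0373% lower at 30 min, 1.74% and 0.644% at 90 min, and 5.33% and 3.65% at 240 min. In introns it called Nr4a1 lower at 30 min (0.676% of genes higher and 0.652% lower), Crem higher and Nr4a1, Sik1 and Creb3l3 lower at 90 min (3.83% and 4.6%), and Nr4a1 and Sik1 lower at 240 min (2.1% and 3.19%).

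The balance of calls in that fit depended on how libraries were scaled. With the median ratio over genes, 56 genes were called higher and 54 lower in introns at 30 min, 317 and 381 at 90 min, and 174 and 264 at 240 min. With library totals these were 16 and 10, 418 and 36, and 65 and 29. In the gene body at 240 min the split was 571 higher and 391 lower with the median ratio and 736 and 261 with totals. The deposited ratios in introns carry a scaling too, and their median offset from the quotient of mean FPKM was -0.14, -0.57 and -0.39 on the log2 scale at the 3 times. With library totals the intronic falls of Nr4a1 were still called at all times (-5.00, -4.36 and -4.99, limma adjusted p = 0.000184, 5.37e-05 and 0.000127), as was the intronic rise of Crem at 90 min (1.60, adjusted p = 0.0303). The intronic calls of Sik1 at 90 and 240 min were lost (log2 changes of -0.996 and -1.35, limma adjusted p = 0.236 and 0.263). Over the gene body Nr4a1 was not called at 30 min (-2.74, limma adjusted p = 0.0558), and Crem was called higher at 240 min (0.79, limma adjusted p = 0.0446). Limma on log2(FPKM + 0.1) of the recovered pools did not call Nr4a1 over the gene body at 30 min (adjusted p = 0.0728) but called it lower at 90 min (adjusted p = 0.0145) and 240 min (adjusted p = 0.0114), and in introns at all 3 times. Among the other members it called Crem alone, higher in the gene body at 240 min (limma adjusted p = 0.0491).

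**Figure D3:**
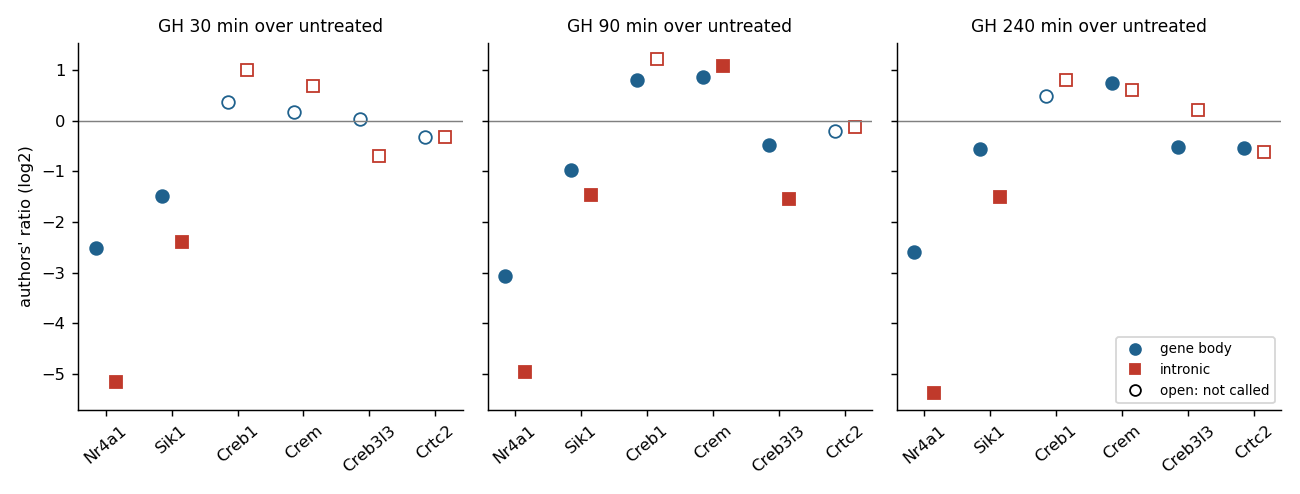
Ratios to untreated liver from the authors' deposited table (log2) at 30, 90 and 240 min for the gene body (circles) and introns (squares) of the 6 measured genes; filled symbols were called at an adjusted p below 0.05. Nr4a1 lies between -2.52 and -3.06 for the gene body and near -5 for introns at all times, and Sik1 is below 0 throughout.

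The order of the members by level per length changed mainly through Nr4a1. In untreated liver it was second after Creb3l3, at 22.5 FPKM, and was followed by Crtc2 (14.2), Sik1 (11.7), Crem (5.32) and Creb1 (2.04), with no overlap between the pools of neighbours. At 90 min Nr4a1 was the lowest of the 6 measured members at 2.70 FPKM, below Creb1 at 3.55. At 30 min the pools of Sik1 and Nr4a1 overlapped with those of both Crem and Creb1, which did not overlap with each other, and at 240 min those of Nr4a1 and Creb1 did not, at 3.40 and 4.17 against 2.58 and 3.24 FPKM.

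The genes of the table whose 3 gene body log2 ratios lay closest to those of Nr4a1 were Igfbp1 (root mean square difference 0.49), 8430408G22Rik (0.85), Mir7024 (0.95), 1700056E22Rik (1.08) and Cxcl10 (1.14). Igfbp1, an insulin-like growth factor binding protein of the fasted liver, went from 48.2 and 42.5 FPKM in the untreated pools to 11.7 and 11.4 at 30 min, 7.10 and 5.22 at 90 min and 11.4 and 11.8 at 240 min. Both 30 min pools of Igfbp1 gave nearly the same value. Limma with voom called it lower at each time, with log2 changes of -1.91, -2.88 and -2.04 (adjusted p = 0.00804, 0.000417 and 0.000733). Mir7024 was not called at any time in the authors' deposited table. For Sik1 the closest were Osgin1 (0.12), Nr1d1 (0.18) and Saa2 (0.18). Over the gene body Nr1d1 and Saa2 were not called at 30 min, and Saa2 was at 947 and 83.6 FPKM in the 30 min pools. For Creb1 they included Ptbp3 and Eea1, for Crem they were P2ry2, Tor1aip1 and Mrs2, for Creb3l3 Fcgrt, Psmb9 and Lpin2, and for Crtc2 Sdc3, Tef and Nadsyn1, at differences of 0.016 to 0.050. Like Mir7024, Psmb9 and Nadsyn1 were not called at any time in the authors' deposited table. Likeness here covers 3 ratios that share the untreated pools.

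Of the known cAMP and CREB targets outside the members, more were called lower than higher. The authors' deposited table, in which 23 of 25 listed were measured, had 0 higher and 2 lower at 30 min, 3 higher and 11 lower at 90 min, and 1 higher and 10 lower at 240 min. Of all measured genes 0.224% were called higher and 0.289% lower at 30 min, 15.9% and 12.5% at 90 min, and 14.4% and 8.58% at 240 min. The median log2 ratio of the targets was -0.23, -0.40 and -0.32, against 0.02, -0.01 and 0.03 for all measured genes. Once the trend with length and GC content was removed, the medians of the targets were -0.32, -0.11 and -0.31. Over the gene body the hepatocyte markers had lower medians than the targets at 90 and 240 min. They were -0.50 and -0.49 before and -0.20 and -0.50 after that removal. Tat belongs to both lists. In introns, where 19 targets were measured, their medians were -1.17, -1.29 and -1.23, against 0.01, 0.06 and 0.04 for all measured genes. The intronic medians of the hepatocyte markers were -0.07, -0.60 and -0.10. Over the gene body, limma with voom called 0 targets lower at 30 min, 4 at 90 min and 7 at 240 min, and none higher. Of the genes it tested there, 0.0373%, 0.644% and 3.65% were called lower, and 0.00933%, 1.74% and 5.33% higher.

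The immediate-early factors Junb and Egr1 were lowest at 240 min. Junb was at 89.1 and 97.4 FPKM in the untreated pools, 59.2 and 42.9 at 30 min, 69.8 and 55.5 at 90 min and 19.6 and 17.5 at 240 min. Its log2 ratio at 240 min was -2.39 in the authors' deposited table (adjusted p = 2.42e-47), and at 90 min it was -0.58, or -0.05 once the trend with length and GC content was removed. Egr1 was at 28.3 and 24.6 FPKM in the untreated pools and differed between the 30 min pools, at 24.3 and 52.8. It was at 11.4 and 8.99 FPKM at 90 min and 3.78 and 6.35 at 240 min. By the authors' deposited table Egr1 fell by 1.37 and 2.39 on the log2 scale at those times. Fos, named after its values were seen, fell by 1.98 and 2.47 there.

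The gluconeogenic and amino acid enzymes Pck1 and Tat were also lower. Pck1, the rate-limiting enzyme of gluconeogenesis from pyruvate, went from 420 and 396 FPKM to 200 and 317 at 30 min, 201 and 175 at 90 min and 271 and 229 at 240 min. In introns its log2 ratio was -3.17 at 30 min in the authors' deposited table, and -0.62 over the gene body. Tat, tyrosine aminotransferase, went from 535 and 527 FPKM to 263 and 236 at 90 min, a log2 ratio of -1.09 in the authors' deposited table, with an intronic ratio of -3.31. G6pc, the catalytic subunit of glucose-6-phosphatase, was at 31.9 and 27.4 FPKM in the untreated pools, 27.4 and 56.7 at 30 min, 9.38 and 4.86 at 90 min and 44.3 and 44.2 at 240 min. The authors' deposited table called both its log2 ratio of -2.06 at 90 min and that of 0.53 at 240 min. Irs2 and Gadd45b, named after their values were seen, were the targets called lower over the gene body at 30 min, with log2 ratios of -1.28 and -2.45 in the authors' deposited table. In introns that table called Pck1, Tat and G6pc lower at 30 min, with log2 ratios of -3.17, -3.34 and -1.64 (adjusted p = 3.40e-11, 4.53e-12 and 0.00964).

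**Figure D4:**
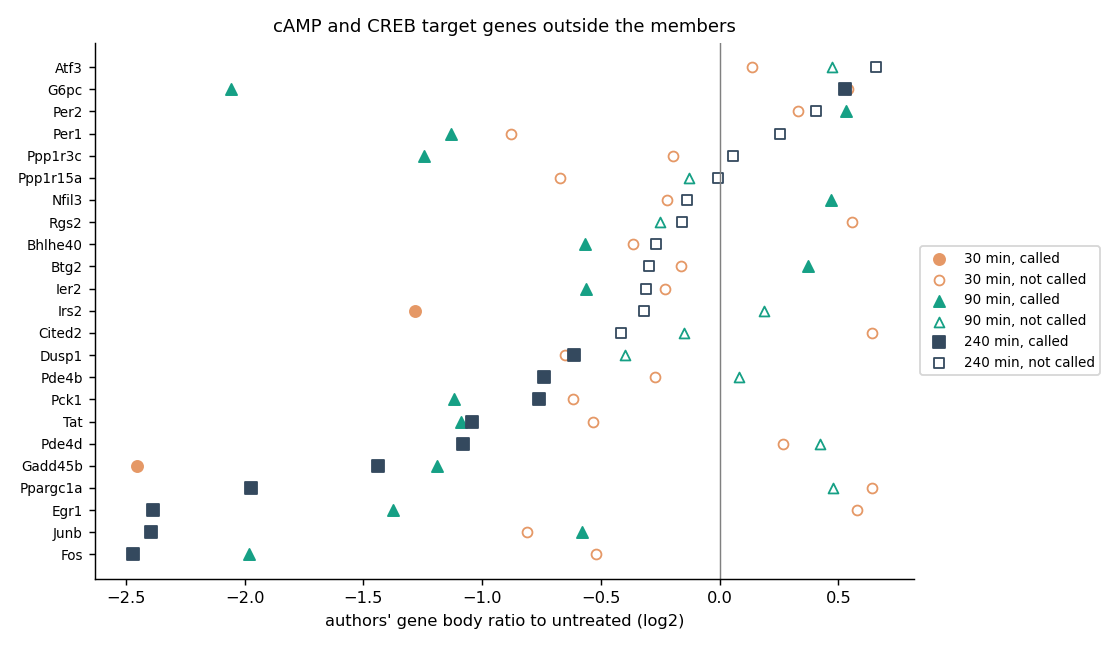
Gene body ratios to untreated liver (log2) from the authors' deposited table for the 23 measured cAMP and CREB targets outside the members at 30, 90 and 240 min; filled symbols were called at an adjusted p below 0.05. Most called points lie below 0, with Junb, Egr1 and Fos near -2.4 at 240 min.

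G6pc belongs also to the genes reported as NR4A targets in mouse liver, with Fbp1, Fbp2 and Eno3. Fbp1, fructose-1,6-bisphosphatase, had gene body log2 ratios of 0.01, -0.34 and -0.09 in the authors' deposited table and was called at 90 min. Once the trend with length and GC content was removed, its 90 min gene body ratio was -0.08. Eno3, the muscle-type enolase, was not called at any time, with log2 ratios of -0.14, -0.39 and -0.39 in the authors' deposited table. Fbp2 was listed at 0 in the 30 and 240 min groups and was not measured. Among the RXR genes, whose products can pair with NR4A1 and NR4A2, the authors' deposited table had Rxrg lower, with log2 ratios of -0.77 at 90 min and -1.21 at 240 min, and Rxra and Rxrb without a call.

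Among 7 measured genes reported as CREB3L3 targets in mouse liver, the authors' deposited table called 0 higher and 4 lower at 90 min (15.9% and 12.5% of all measured genes), and 1 higher and 2 lower at 240 min (14.4% and 8.58%). Their median log2 ratio at 90 min was -0.33, and -0.06 once the trend with length and GC content was removed. Hamp2, a hepcidin gene, fell by 0.98 at 90 min and 0.52 at 240 min on the log2 scale there. Apoa4 fell by 0.81 and 0.45. Apoa5, an activator of lipoprotein lipase, was called in the authors' deposited table with log2 ratios of -0.33 at 90 min and 0.79 at 240 min. Without that trend the 90 min ratios were -0.71 for Hamp2, -0.43 for Apoa4 and -0.06 for Apoa5. Hamp and Hamp2 are near-identical copies, and their reads may have been divided between them.

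The machinery of cAMP signalling showed calls in both directions. Its list shares Pde4b and Pde4d with the cAMP and CREB targets, and both were called lower over the gene body at 240 min. Of 48 listed genes 28 were measured, and over the gene body none was called at 30 min in the authors' deposited table. There 9 were higher and 3 lower at 90 min (15.9% and 12.5% of all measured genes), and 2 were higher and 7 lower at 240 min (14.4% and 8.58%). In introns 1 of 26 measured was called higher at 30 min, against 0.351% of all genes. Adcy6, an adenylyl cyclase, was at 14.2 and 13.7 FPKM in the untreated pools and 6.41 and 7.46 at 240 min. Its log2 ratio of -1.05 at 240 min was called in the authors' deposited table, as it was with limma and voom (-1.09, SE 0.20, adjusted p = 0.0119). Akap11, a kinase anchor, was higher at 90 min (0.81), Pde3b, a cAMP phosphodiesterase that insulin activates, was higher at 90 min (0.61), and Pde4c was lower at 90 and 240 min (-0.69 and -0.51), all as log2 ratios of the authors' deposited table. Without the trend with length and GC content, the 90 min ratios were 0.15 for Akap11 and 0.19 for Pde3b. Limma with voom called none of the 28 at 90 min, and 0 higher and 3 lower at 240 min. Of the genes it tested, 1.74% were called higher and 0.644% lower at 90 min, and 5.33% and 3.65% at 240 min.

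Other CREB and ATF factors, coactivators and SIK kinases numbered 18 measured genes. Over the gene body, none was called at 30 min in the authors' deposited table. There 9 were higher and 0 lower at 90 min (15.9% and 12.5% of all measured genes), and 3 were higher and 1 lower at 240 min (14.4% and 8.58%). The median log2 ratios were -0.09, 0.37 and 0.23, and -0.05, 0.26 and 0.15 once the trend with length and GC content was removed. Crtc3, a coactivator of the same family as Crtc2, went from 2.68 and 3.28 FPKM to 5.79 and 6.87 at 90 min. This was a log2 ratio of 1.07 for Crtc3 in the authors' deposited table and 1.09 with limma and voom (SE 0.22, adjusted p = 0.0327). Creb3l2 (log2 ratio 1.25), Crebbp (0.87) and Ep300 (0.65) were higher at 90 min too in the authors' deposited table, the latter 2 being the acetyltransferases CBP and p300, but were not called with limma and voom. Without the length and GC trend these were 0.97, 0.43 and 0.26. Among the 18 genes, Crtc3 was the single one called over the gene body by that fit at 90 min. Of the genes tested, it called 1.74% higher and 0.644% lower then. In introns the authors' deposited table called 1 of 17 measured higher at 30 min, against 0.351% of all genes. This was Crtc3, with intronic log2 ratios of 1.81 at 30 min (adjusted p = 0.0252) and 2.49 at 90 min (adjusted p = 8.50e-16).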

How the data were processed

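Strand-specific poly-A libraries of 8 RNA pools were made per the labels' protocols, and TopHat2, featureCounts, edgeR and the mm9 build are named, without versions, per the submitters' processing notes. Per the file headers, the authors deposited mean FPKM per group, a normalized ratio, a signed fold score and an adjusted p-value for gene body and intronic reads. The method of its adjustment was not given in any source at hand. A further 4 columns repeat the untreated means and were not used. Members and lists were chosen with earlier results of these data known.

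A mean FPKM is the average of 2 values, each a whole count divided by its library total and the gene's length. Totals were read from genes with a single read. The smallest length giving whole reads in all 4 groups, within a tolerance of 1e-06 reads, was taken, and for 8594 of 8621 genes at a single location it gave whole intronic reads with the rest of the gene's span too. That gene body length therefore leaves introns out. These recovered reads were chosen as a test after seeing the data. They were scaled by the median ratio over genes, separately for introns, and fitted with limma and voom over the 4 groups, with Benjamini-Hochberg adjustment over all genes tested and means of at least 1 FPKM, and 0.01 intronic FPKM for introns. Each step was tested on simulated data. The authors' adjusted p below 0.05 remained the main call, as planned for a table without values per library. The plan named limma on log2(FPKM + 0.1) as the test if values per library were present. As these were rebuilt from group means, that fit is given as an alternative. Tests between GH times, scaling by library totals and removal of the trend from list medians were also chosen after seeing the data.

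Named genes were the members, up to 4 genes per list with the smallest authors' adjusted p, every gene of lists of at most 5, and the genes with the smallest root mean square difference in log2 ratio (5 for Nr4a1, 3 for the others); a gene that this rule names for Creb1 is not reported here. For the trend, each gene took the length and GC share of its longest transcript in a GENCODE annotation of another build, found by symbol for 96.1% of 10736 measured genes, and no coordinates. Alternatives were stricter calls, quotients of mean FPKM with pseudocounts of 0.1 and 1, scaling to the median of measured genes, removal of the length and GC trend, other filters, and leaving out each library. A comparison of protein sequences was planned but not run. Software comprised limma 3.58.1 in R 4.3.3, and numba 0.67.0, numpy 2.4.6, matplotlib 3.10.9, scipy 1.17.1, statsmodels 0.14.6 and pandas 2.3.3 under Python 3.11.15.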

Additional observations from a re-analysis of the deposited data

How the results depend on the processing

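No paired analysis was possible because the recovered libraries carry no pool number. At these depths it could not be told whether Nr4a3 fell, because its untreated level rests on 3 reads. No called value of a named gene changed direction under the alternatives run. Limma with voom lost 52 of the calls of the named genes and added none. Its spread is common to all groups, the 30 min libraries included, and the cause of the lost calls was not tested. Quotients of mean intronic FPKM differ from the deposited ratios both by the pseudocount and by the scaling of those ratios. The 30 min libraries differed from each other. Without either of them that fit has no spread within the 30 min group, so its p at 30 min does not measure the difference between those libraries.

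For the gene body, members lower at 30 min numbered 1 at an adjusted p below 0.01, 1 with limma and voom and 0 with limma on log2(FPKM + 0.1). With a minimum of 2-fold, the higher members numbered 0 at 90 min and 0 at 240 min, and the lower ones 1 at 90 min and 1 at 240 min. With an adjusted p below 0.01, 2 were lower at 240 min, and in introns 1. Limma with voom, and limma on log2(FPKM + 0.1), each called 0 members higher and 1 lower at 90 min. At 240 min limma with voom called 0 higher and 1 lower, and limma on log2(FPKM + 0.1) called 1 lower. In introns, limma with voom and limma on log2(FPKM + 0.1) each called 1 lower at 30 min, and the latter called 0 higher and 1 lower at 90 min and 1 lower at 240 min. With library totals, limma with voom called 0 members lower at 30 min in the gene body and 1 in introns, 0 higher and 1 lower in the gene body and 1 lower in introns at 90 min, and 1 lower in each at 240 min. Leaving out 1 library in the limma and voom fit, where the lone sample of a group is assumed to vary like the others, gave 0 to 1 members higher and 0 to 2 lower at 30 min, 0 higher and 0 to 1 lower at 90 min, and 0 higher and 0 to 1 lower at 240 min. In introns it gave 1 lower at 30 min, 0 to 1 higher and 1 to 3 lower at 90 min, and 1 lower at 240 min.

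For cAMP machinery, a minimum of 5 FPKM left 5 genes higher at 90 min and 0 at 240 min, and limma with voom called 0 higher and 0 lower at 90 min and 0 higher and 3 lower at 240 min. For the other CREB and ATF factors the 5 FPKM minimum gave 5 higher at 90 min and medians of 0.017 at 30 min and 0.33 at 240 min, removal of the length and GC trend a median of 0.26 at 90 min, and limma with voom 1 higher at 90 min and 0 higher and 0 lower at 240 min. For cAMP and CREB targets the 5 FPKM minimum gave 1 lower at 30 min, 5 lower at 240 min and a median of -0.56 at 90 min, no filter gave a median of -0.55 at 90 min and removal of the length and GC trend one of -0.11, and limma with voom gave 0 lower at 30 min, 0 higher and 4 lower at 90 min and 0 higher at 240 min.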
